A study of Mus musculus with 48 samples.

Results

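The age change in spinal cord of Tia1 knockout (KO) mice was read from 3 arrays of mice aged 6 months and 3 arrays of mice aged 3 months, which were 6 of the 48 arrays of the series. They were chosen by their labels alone, and every probe set other than the controls was compared, 45037 in all, where a probe set is a group of short oligonucleotides that reads a transcript. KO mice were homozygous for a Tia1 allele that lacks exon 4 on a C57BL6/J background, belonged to a single line and were untreated. Wild-type (WT) spinal cord, again 3 arrays of mice aged 6 months and 3 of mice aged 3 months, and KO cerebellum and midbrain served to show where the KO spinal cord differed. The labels give KO mice the numbers 122970, 122972 and 122973 at both ages, and these were taken as different animals because tissue was collected after death. The 2 ages were therefore separate cohorts, and age, cohort and dissection day cannot be told apart. Values are log2 intensities from Robust Multichip Average (RMA), where each unit is a log2 step, and the arrays within KO spinal cord correlated at 0.995 to 0.997.

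TIA-1 is an RNA-binding protein that gathers stalled mRNAs into stress granules and represses translation of transcripts with U-rich and AU-rich elements. Spinal cord joins the neurons that drive muscle and those that relay sensation with a large share of myelinated axons, and it lies inside the vertebral canal, close to dorsal root ganglia, paravertebral muscle and the marrow of the vertebrae. Bone marrow is where neutrophils mature and fill their granules in sequence, first with myeloperoxidase and the serine proteases and later with lactoferrin, cathelicidin and the neutrophil collagenase, and where red cells form.

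The labelled tissue carried its defining transcripts at both ages. Rbfox3, a marker of neuronal nuclei, averaged 10.92 at 6 months and 10.91 at 3 months in KO spinal cord, Mbp, the myelin basic protein, 12.70 and 12.77, and the trunk patterning gene Hoxc8 8.93 and 9.03. The exon 4 probe set of Tia1 (1431708_PM_a_at) read 5.44, 5.35 and 5.45 in the KO mice aged 6 months, against 5.14, 5.39 and 5.52 in those aged 3 months, and all 6 values lay below the 6 WT spinal cord arrays, the lowest of which read 7.49. The Y-linked Eif2s3y was present in all spinal cord arrays (7.13 to 7.73).

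In KO spinal cord 5 probe sets were higher and 36 lower at 6 months than at 3 months at an adjusted p under 0.05 (limma, Benjamini-Hochberg over all probe sets), which is 0.0111% and 0.0799% of those tested. Taking the brightest probe set of each gene, 27 genes fell, of which 7 belonged to the granulocyte list, 2 to the cell cycle list (Mki67 and Top2a), 1 to the erythroid list (Slc4a1) and 1 to the myelin list (Opalin). A probe set of the noncoding RNA Meg3 fell as well. Of the 5 that rose, 3 were liver transcripts, high mainly in part of the 6-month arrays, and 2 had no single gene symbol here. In WT spinal cord 57 probe sets were higher (0.127%) and 52 lower (0.115%). The difference of the age changes, KO minus WT, passed for 10 probe sets upward (0.0222%) and 14 downward (0.0311%), so that 9 of the 41 probe sets changed in KO spinal cord also differed from WT.

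**Figure D1:**
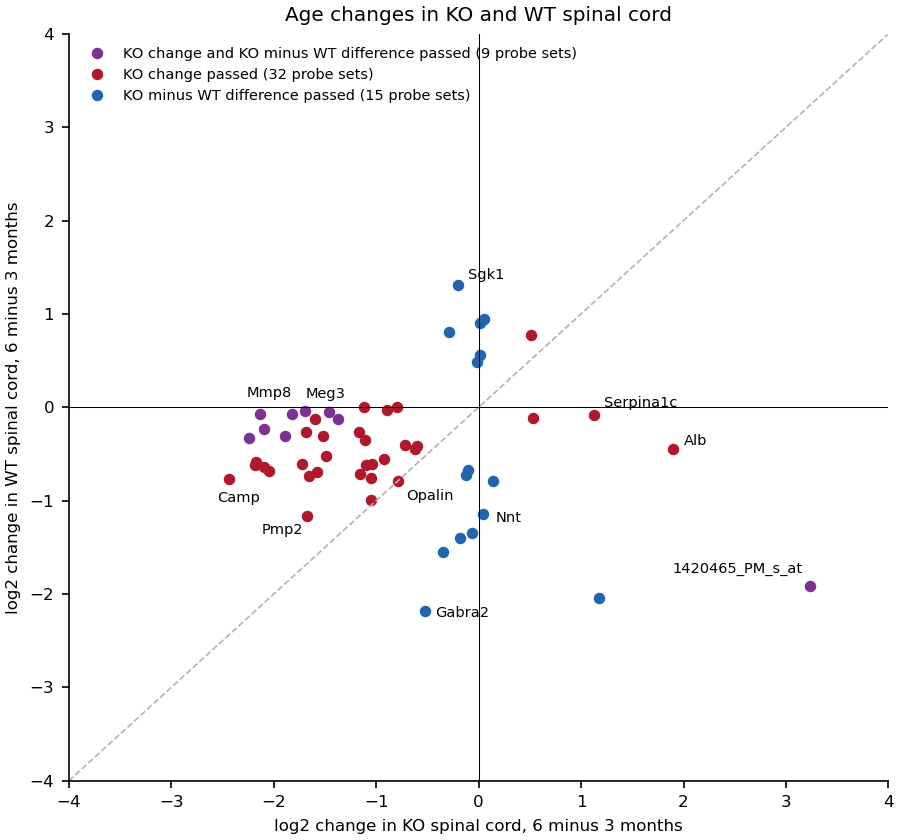
Log2 change at 6 against 3 months in KO spinal cord (horizontal) and WT spinal cord (vertical) for the 56 probe sets that passed limma's test for the KO change, for the KO minus WT difference or for both, with the dashed line marking equal change. Most red and purple points lie at KO changes below -0.5 with WT changes closer to 0, and most blue points lie near 0 in KO spinal cord.

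Promoters are shown for 4 granule genes that fell together in KO spinal cord, Camp, Ltf, Ngp and Mmp8, which lie on chromosome 9. The sequences are RefSeq promoters of build GRCm38.p6, 250 bases before to 50 after the transcript start. Capitals mark the motif TTGCNNAA on either strand, a core of sites bound by C/EBP factors, the family that drives granule genes in maturing neutrophils. The windows are chr9:109849407-109849706 on the minus strand for Camp, chr9:111019042-111019341 on the plus strand for Ltf, chr9:110419558-110419857 on the plus strand for Ngp and chr9:7558179-7558478 on the plus strand for Mmp8.
Camp: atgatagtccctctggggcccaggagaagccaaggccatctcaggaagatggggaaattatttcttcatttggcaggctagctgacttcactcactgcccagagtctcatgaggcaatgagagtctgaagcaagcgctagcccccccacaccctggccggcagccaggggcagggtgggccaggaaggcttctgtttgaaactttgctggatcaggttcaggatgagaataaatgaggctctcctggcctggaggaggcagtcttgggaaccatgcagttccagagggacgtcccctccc
Ltf: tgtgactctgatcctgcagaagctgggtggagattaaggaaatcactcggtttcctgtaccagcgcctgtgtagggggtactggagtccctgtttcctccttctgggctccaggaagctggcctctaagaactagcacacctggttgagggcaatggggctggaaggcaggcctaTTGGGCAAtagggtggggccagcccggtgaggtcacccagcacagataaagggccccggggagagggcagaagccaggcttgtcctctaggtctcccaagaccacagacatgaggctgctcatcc
Ngp: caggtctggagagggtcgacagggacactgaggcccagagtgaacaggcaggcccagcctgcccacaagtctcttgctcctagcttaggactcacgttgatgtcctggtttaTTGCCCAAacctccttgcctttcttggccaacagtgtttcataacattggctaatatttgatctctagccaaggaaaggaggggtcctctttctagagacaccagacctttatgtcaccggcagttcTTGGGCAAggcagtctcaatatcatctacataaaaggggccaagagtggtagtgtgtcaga
Mmp8: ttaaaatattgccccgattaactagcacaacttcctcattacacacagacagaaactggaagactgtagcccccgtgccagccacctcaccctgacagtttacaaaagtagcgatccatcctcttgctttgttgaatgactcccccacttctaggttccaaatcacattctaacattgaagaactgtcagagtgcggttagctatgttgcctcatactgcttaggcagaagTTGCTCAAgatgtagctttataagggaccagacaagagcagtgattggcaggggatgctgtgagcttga
Ngp held the motif at 138 and 11 bases before the start, Ltf at 75 and Mmp8 at 19, while Camp held none in this window. Of the 28 named genes that fell, 22 had an entry, with 24 promoters between them, and 6 of these promoters (25%) held the motif, against 3547 of all 32851 promoters (10.8%). The 6 include that of Chil4, whose called probe set may read Chil3, and the Chil3 promoter held no motif. The 24 include those of Meg3, of which a single probe set fell. These shares were not tested.

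Mmp8, the neutrophil collagenase stored in specific granules, read 3.42, 3.10 and 3.40 at 6 months, against 5.09, 5.03 and 5.27 at 3 months. The younger KO mice all stood above the older ones without overlap, while all WT arrays of both ages read between 2.91 and 3.24. The change was -1.82 (SE 0.14, 3.53-fold lower, limma adjusted p = 7.14e-11), and it differed from the WT change of -0.07 (difference -1.75, adjusted p = 3.77e-06). The WT values lay below the median level of all probe sets in spinal cord (4.28), near background. A fall in WT mice could therefore hardly have been seen, and the difference restates the KO change. In bulk tissue fewer cells of a type and less RNA per cell cannot be told apart. Mmp8 was the only measured member of the granulocyte list that also passed when the 12 spinal cord arrays were fitted alone.

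Camp, the precursor of the antimicrobial peptide cathelicidin, read 5.76, 5.54 and 5.50 at 6 months, against 8.03, 7.48 and 8.58 at 3 months in KO spinal cord. Every younger KO mouse was above every older one, and also above the WT arrays, the highest of which reached 7.05 at 3 months. It had the largest fall of any probe set that passed, -2.43 (SE 0.32, 5.40-fold lower, limma adjusted p = 2.04e-05). The WT change was -0.77 and the difference of -1.66 did not pass (adjusted p = 0.45).

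Ltf, the iron-binding lactoferrin, read 5.12, 5.24 and 4.43 at 6 months, against 7.21, 6.54 and 7.55 at 3 months, a change of -2.17 (SE 0.26, limma adjusted p = 4.26e-06), against -0.58 in WT spinal cord. Ngp, a cystatin-like granule protein, read 7.10, 6.66 and 6.60 at 6 months, against 8.84, 8.47 and 9.35 at 3 months, a change of -2.10 (SE 0.29, adjusted p = 7.20e-05), against -0.64 in WT. In both genes mouse 122973 was the highest and 122972 the lowest of the younger KO mice, the order also seen in Camp. S100a9, a subunit of the calcium-binding complex calprotectin, read 8.66, 8.20 and 7.93 at 6 months, against 10.56, 10.08 and 10.71 at 3 months (-2.18, SE 0.45, adjusted p = 0.026), against -0.62 in WT. The KO minus WT difference did not pass for Ltf (-1.59, adjusted p = 0.151), Ngp (-1.46, adjusted p = 0.552) or S100a9 (-1.57, adjusted p = 1), and the S100a9 call was lost without any 1 of 4 KO arrays (3-month 122970 and 122973, 6-month 122972 and 122973, adjusted p up to 0.233). Its partner S100a8 read 8.32, 8.08 and 7.58 against 9.94, 9.54 and 10.36 and did not pass (-1.95, adjusted p = 0.155), although no arrays overlapped.

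Chil3, a chitinase-like lectin of neutrophil precursors and macrophages, read 5.68, 5.50 and 5.24 at 6 months, against 7.53, 7.37 and 8.24 at 3 months. Its fall of -2.24 (SE 0.25, limma adjusted p = 7.72e-07) exceeded the WT change of -0.32 (difference -1.92, adjusted p = 0.0117). A probe set assigned to the neighbouring paralogue Chil4, 1425451_PM_s_at, moved alike (-2.13, adjusted p = 9.20e-05), but the other Chil4 probe set was near background and stood at -0.16, and probes of the first may read Chil3 as well. Mpo, myeloperoxidase of the primary granules, read 3.33, 3.74 and 3.30 at 6 months, against 4.80, 4.02 and 6.12 at 3 months (-1.52, SE 0.28, adjusted p = 0.0048), with the younger mice widely spread and mouse 122973 the highest. Without that array Mpo stood at -0.95 and did not pass (adjusted p = 0.209).

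Over the granulocyte and marrow precursor list, 15 genes were measured, 7 fell, none rose and 8 did not pass, with a median of -1.82 in KO spinal cord, against a median of -0.0004 over all 17097 genes, of which 3 rose (0.0175%) and 27 fell (0.158%). The ages did not overlap for 12 of the 15 genes, lower at 6 months each time, against 6.25% of all genes lower and 5.67% higher without overlap. The list was chosen with earlier results of these data known, so that its counts describe these arrays and are not a test. The mean level of the list was 4.98, 4.80 and 4.69 in the KO mice aged 6 months, against 6.22, 5.78 and 6.63 in those aged 3 months. In WT mice it was 4.95, 4.15 and 4.56 at 6 months, against 4.83, 4.60 and 5.43 at 3 months, with a median change of -0.32 and no member called. The older KO mice thus lay within the WT range and the younger KO mice above it. The early protease genes Elane and Prtn3 were near background and did not pass (-0.18 and -0.86). The list's count fell to 1 when the spinal cord arrays were fitted alone and lay between 5 and 8 as each KO spinal cord array was left out.

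**Figure D2:**
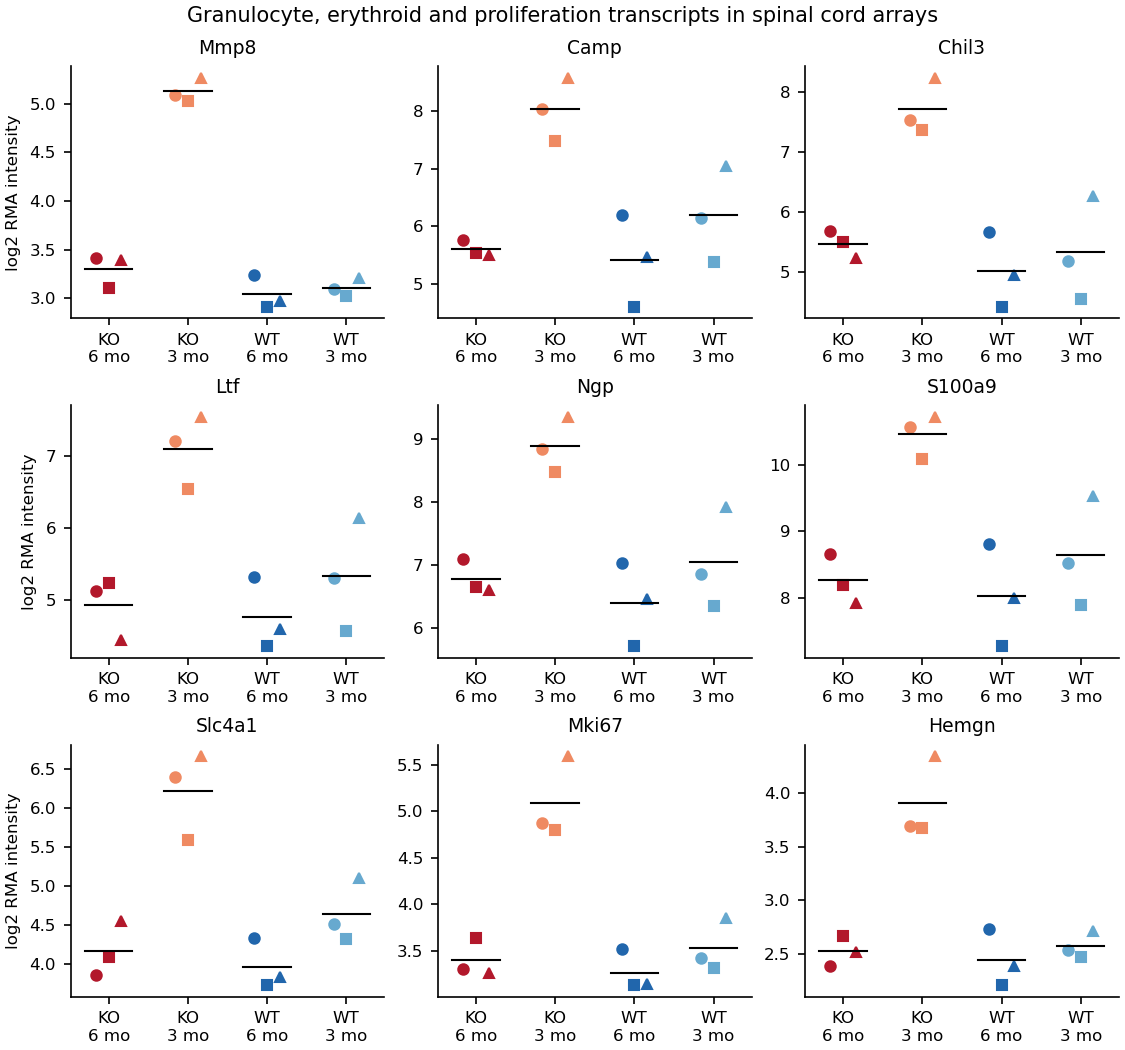
Log2 RMA intensity of 9 transcripts that fell in KO spinal cord, for KO mice at 6 and 3 months and WT mice at 6 and 3 months. Each point is an array (circle, square and triangle are mice 122970, 122972 and 122973 in KO and mice 1, 2 and 3 in WT), bars are means, and each panel has its own scale. The 3 KO arrays at 3 months stand above the 3 at 6 months in every panel.

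In KO brain no member of the granulocyte list passed, with a median change of 0.09 in KO cerebellum and 0.01 in KO midbrain. Camp at 2.53 to 3.36, Ngp at 2.66 to 3.30 and Mmp8 at 2.43 to 2.84 were near background over the 12 KO brain arrays, so that a fall of theirs could not have been seen and the tissue differences restate the change in spinal cord. The change in spinal cord was lower than that in cerebellum for 14 probe sets (0.0311%) and lower than that in midbrain for 16 (0.0355%), and 5 of the 15 granulocyte genes were among them in each case. For Mmp8 the difference was -1.85 against cerebellum (limma adjusted p = 9.55e-07) and -1.88 against midbrain (adjusted p = 5.96e-07).

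Slc4a1 and Hemgn fell among red cell genes. Slc4a1, the band 3 anion exchanger of the red cell membrane, read 3.86, 4.09 and 4.56 at 6 months, against 6.40, 5.59 and 6.67 at 3 months in KO spinal cord (-2.05, SE 0.26, limma adjusted p = 6.70e-06). The WT change was -0.68 and did not pass (adjusted p = 0.431), nor did the difference of -1.37 (adjusted p = 0.382). Hemgn, a nuclear protein of haematopoietic progenitors and erythroblasts, read 2.39, 2.67 and 2.53 at 6 months, against 3.69, 3.67 and 4.34 at 3 months. Its change of -1.37 (adjusted p = 5.26e-08) exceeded the WT change of -0.13 (difference -1.24, adjusted p = 0.00134). Most of these KO values lay below the median level of all probe sets in spinal cord (4.28), so that this difference rests on values near background. Of the 7 measured genes of the erythroid list only Slc4a1 passed, against 0.158% of all genes lower, and the median was -0.40. Alas2, which starts haem synthesis in red cell precursors, stood at -0.54 in KO (adjusted p = 1) and -1.13 in WT (adjusted p = 0.0527) and passed in neither. Hba-a1, the globin of circulating red cells, read 13.48, 13.61 and 13.56 at 6 months, against 13.62, 13.65 and 13.66 at 3 months and did not pass (-0.09, adjusted p = 1). Klf1, the erythroid transcription factor, read 3.34, 3.43 and 3.28 against 4.05, 4.01 and 3.82 without overlap and did not pass either (-0.61, adjusted p = 0.407).

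Mki67, Top2a and Ube2c, genes of dividing cells, fell. Mki67, the antigen Ki-67 of cycling nuclei, read 3.31, 3.64 and 3.26 at 6 months, against 4.88, 4.80 and 5.59 at 3 months (-1.69, SE 0.26, limma adjusted p = 2.93e-04). Top2a, the topoisomerase that untangles replicated chromosomes, changed by -1.15 (adjusted p = 8.17e-04), and Ube2c, a ubiquitin-conjugating enzyme of mitotic exit, by -1.04 (adjusted p = 0.0128). Without the 3-month array of 122973 Top2a no longer passed (-0.94, adjusted p = 0.0515), and the Ube2c call was lost without any 1 of 4 KO arrays (3-month 122970 and 122973, 6-month 122970 and 122972, adjusted p up to 0.209). The WT changes of these 3 genes did not pass, nor did the differences. Of 23 cell cycle genes 2 fell, against 0.158% of all genes. Of the 23, 22 were below 0 in KO and 19 in WT spinal cord, against 8575 and 9993 of all 17097 genes, and the median was -0.20 in KO and -0.12 in WT. Kif11, a mitotic kinesin, did not pass (-0.68, adjusted p = 0.232).

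The remaining named falls had no overlap between the ages. Slfn4, a myeloid member of the Schlafen family, changed by -1.66 (limma adjusted p = 4.43e-04), Ctse, the protease cathepsin E, by -1.60 (adjusted p = 2.57e-04) and Ifitm6, a myeloid interferon-induced membrane protein, by -1.49 (adjusted p = 1.02e-04). Wfdc21, a small secreted protein with a whey acidic protein domain, read 3.53, 3.48 and 3.70 at 6 months, against 5.27, 4.52 and 5.30 at 3 months, and its fall of -1.46 exceeded the WT change (difference -1.41, adjusted p = 0.00238). Smaller falls were those of Cybb, the oxidase subunit of phagocytes (-1.17), Plac8 (-1.05), Plbd1 (-0.93), the neutrophil surface protein Cd177 (-0.89) and Prg2, the eosinophil major basic protein (-0.79). Without the 3-month array of 122973 the calls of Cybb (-0.86), Plac8 (-0.77), Plbd1 (-0.62) and Cd177 (-0.55) were lost, and those of Cybb, Plac8 and Plbd1 also without either 6-month array of 122970 or 122972. The calls of Cybb and Plac8 were lost without the 3-month array of 122970 as well, and that of Plac8 without the 6-month array of 122973. For Cybb, Plac8 and Plbd1 the KO minus WT difference did not pass (adjusted p = 1 each). None of the 15 genes of the microglia list passed, with a median of 0.03 in KO and 0.20 in WT spinal cord.

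Transcripts of tissues next to the cord varied between these arrays too. All 20 measured skeletal muscle genes were below 0 in KO spinal cord, with a median of -1.52, but none passed, and the WT median was -1.57. Acta1, the actin of skeletal muscle, read 8.80, 3.65 and 3.59 at 6 months, against 7.68, 8.46 and 10.03 at 3 months, so that mouse 122970 of the older group carried as much as the younger mice. The mean level of the muscle list was 6.41, 3.58 and 3.71 at 6 months, against 5.36, 5.89 and 7.31 at 3 months. The granulocyte means of the same KO mice, in the same order, were 4.98, 4.80 and 4.69 at 6 months, against 6.22, 5.78 and 6.63 at 3 months. Muscle values do not tell how much marrow was carried along. The part of marrow, blood or muscle carried along with the cord in these values was not tested.

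Genes of sensory ganglion neurons were higher without passing. All 8 of them were above 0, with a median of 0.49 in KO and -0.48 in WT spinal cord, and none passed. Scn11a, a sodium channel of nociceptors, read 5.44, 7.83 and 7.17 at 6 months, against 6.51, 2.62 and 7.06 at 3 months, where the single low array of mouse 122972 set the mean. Fabp4, a fatty acid carrier of adipocytes, read 7.82, 5.90 and 8.41 at 6 months, against 3.39, 3.47 and 9.93 at 3 months, and the ages overlapped. Collagen genes were lower without passing, with a median of -0.26 in KO and -0.28 in WT spinal cord over 18 genes, and Col1a1 read 3.88, 4.54 and 3.95 at 6 months, against 4.85, 4.91 and 5.81 at 3 months (-1.07, limma adjusted p = 0.163).

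The largest rise belonged to 1420465_PM_s_at, a probe set without a single gene symbol here. It read 9.46, 8.25 and 4.81 at 6 months, against 3.84, 4.92 and 4.06 at 3 months (3.23, SE 0.60, limma adjusted p = 0.00665). Alb, the serum albumin of hepatocytes, read 5.76, 5.73 and 2.77 at 6 months, against 2.40, 3.67 and 2.49 at 3 months (1.90, SE 0.41, adjusted p = 0.0491). In both, mice 122970 and 122972 were high and 122973 lay within or beside the younger mice. Serpina1c, a liver antitrypsin, read 4.38, 4.14 and 2.91 at 6 months, against 2.60, 2.75 and 2.71 at 3 months (1.12, adjusted p = 0.00132), and Apoc3, an apolipoprotein of triglyceride-rich particles, read 3.42, 3.18 and 3.00, against 2.72, 2.54 and 2.75 (0.53, adjusted p = 0.00961). Of 26 hepatocyte transcripts measured, a list drawn up after these values were seen, 3 passed, all higher, and 24 were above 0, with a median of 0.17. Over all 17097 genes 3 were higher (0.0175%) and 8522 were above 0. The mean of the list was 3.59, 3.46 and 3.06 at 6 months, against 3.00, 3.06 and 3.19 at 3 months. Without the 6-month arrays of 122970 and 122972, Alb stood at -0.08 and the list's median was -0.02. These 2 arrays were picked, outside the plan, because they carried liver transcripts, so that this loss was set by the choice. Leaving both out keeps 1 KO array at 6 months, too few for a test. The calls of Alb, 1420465_PM_s_at, Serpina1c and Apoc3 were lost without either of these arrays alone, and those of all but Serpina1c without some single 3-month arrays.

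**Figure D3:**
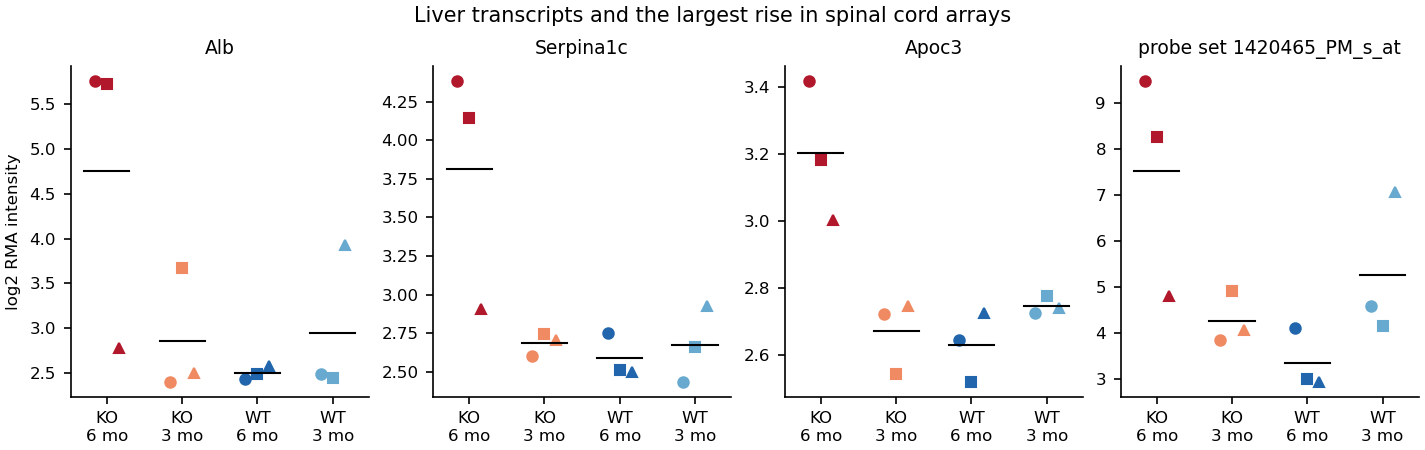
Log2 RMA intensity of Alb, Serpina1c, Apoc3 and probe set 1420465_PM_s_at in KO and WT spinal cord at 6 and 3 months, with symbols for mice as circle (122970 or WT 1), square (122972 or WT 2) and triangle (122973 or WT 3) and bars for means; each panel has its own scale. For Alb, 2 of the 3 KO arrays at 6 months read over 5.7 and the third 2.77.

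The fifth rise was that of 1452975_PM_at, again without a single symbol here. It read 9.70, 9.48 and 9.63 at 6 months, against 9.10, 9.12 and 9.06 at 3 months (0.51, limma adjusted p = 0.0495). The call was lost when any of the 6 KO arrays was left out (adjusted p up to 0.366) and with spinal cord arrays alone. It rose in WT spinal cord (0.77, adjusted p = 8.27e-05). Among named genes of at least median level whose ages did not overlap, none passed upward. The smallest p belonged to Plin4, which coats lipid droplets and is a gene the study names, with 8.63, 7.79 and 7.93 at 6 months, against 7.06, 7.15 and 7.13 at 3 months (1.00, SE 0.24, adjusted p = 0.144). It rose in WT spinal cord, with 5.95, 6.47 and 7.11 at 6 months, against 5.40, 5.21 and 5.30 at 3 months (1.2, adjusted p = 0.0132), and the difference between genotypes was -0.20 (adjusted p = 1). Kif6, Aass, Sp4, Ctla2a, Pcdhb9, Malt1, Cdkn1b, Phyhd1 and Bloc1s6 followed, with changes of 0.22 to 0.62 that did not pass.

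A single Meg3 probe set fell in KO spinal cord and did not pass in WT spinal cord. Meg3 is a maternally expressed long noncoding RNA of an imprinted cluster on chromosome 12 and is abundant in neurons. Probe set 1429257_PM_at read 8.74, 8.67 and 8.34 at 6 months, against 10.27, 10.37 and 10.19 at 3 months in KO spinal cord, while all WT spinal cord arrays read 10.20 to 10.37 at either age. The change was -1.69 (SE 0.19, 3.23-fold lower, limma adjusted p = 7.72e-07), the WT change was -0.04 and the difference was -1.66 (adjusted p = 0.00238). KO cerebellum read 7.98, 8.01 and 8.0 at 6 months, against 9.76, 9.77 and 9.75 at 3 months (-1.76, adjusted p = 7.90e-07). KO midbrain read 9.24, 9.37 and 9.30 at 6 months, against 10.94, 10.93 and 10.85 at 3 months (-1.60, adjusted p = 1.85e-05). In liver, where Meg3 was near background, it read 3.62, 3.06 and 3.47 against 4.51, 3.30 and 4.33.

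None of the other 10 Meg3 probe sets passed. Their changes in KO spinal cord lay between -0.03 and 0.07, and the brightest, 1452906_PM_at, averaged 11.98 at 6 months and 11.95 at 3 months. Neighbours in the imprinted cluster did not pass either, and Rian stood at -0.12 and Mirg at -0.03 in their brightest probe sets (limma adjusted p = 1 each). None of the 16 imprinted genes passed by its brightest probe set. The fall of 1429257_PM_at was seen in all 3 KO nervous tissues, with a spinal cord minus cerebellum difference of 0.07 (adjusted p = 0.9999) and a spinal cord minus midbrain difference of -0.09 (adjusted p = 1).

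**Figure D4:**
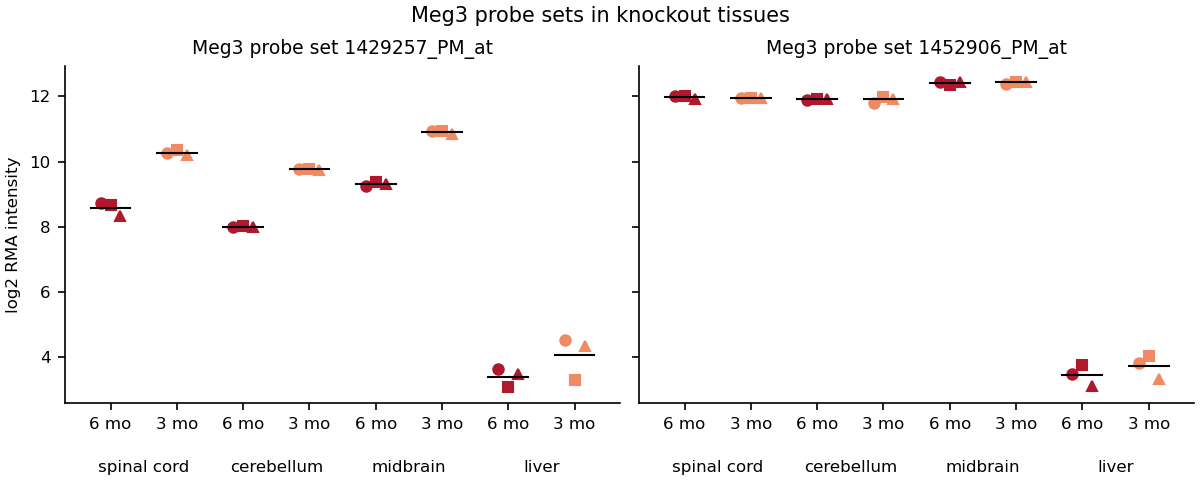
Log2 RMA intensity of Meg3 probe sets 1429257_PM_at (left) and 1452906_PM_at (right) in KO spinal cord, cerebellum, midbrain and liver at 6 and 3 months, with an array per point (circle 122970, square 122972, triangle 122973) and bars for means. The left probe set is lower at 6 months in the 3 nervous tissues, and the right one is level.

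A few falls were shared with WT spinal cord. Opalin, a membrane protein of mature oligodendrocytes, read 7.90, 7.83 and 7.47 at 6 months, against 8.48, 8.54 and 8.55 at 3 months in KO spinal cord (-0.79, SE 0.12, limma adjusted p = 3.16e-04). The WT change was also -0.79 (adjusted p = 3.43e-04), with 8.43, 8.30 and 8.15 at 6 months, against 9.13, 8.99 and 9.13 at 3 months, and in KO cerebellum it was -0.75 (adjusted p = 0.0042). Pmp2, a lipid carrier of peripheral myelin, read 5.81, 6.23 and 5.03 at 6 months, against 7.72, 6.67 and 7.70 at 3 months in KO spinal cord (-1.67, adjusted p = 1.03e-04) and changed by -1.16 in WT (adjusted p = 0.0193). Nab1, a co-repressor of EGR factors, changed by -0.60 in KO (adjusted p = 3.51e-04) and -0.42 in WT (adjusted p = 0.0376), and 9630013A20Rik, a transcript of newly formed oligodendrocytes, by -1.05 in KO (adjusted p = 0.00961) and -0.99 in WT (adjusted p = 0.0157). Mta3, a subunit of the NuRD chromatin complex, changed by -0.62 in KO (adjusted p = 0.0384) and -0.44 in WT, which did not pass (adjusted p = 0.195). The Mta3 call was lost without any 1 of 5 KO arrays (all but 6-month 122970, adjusted p up to 0.59), and that of 9630013A20Rik without any 1 of 3 (3-month 122970 and 122973, 6-month 122972, adjusted p up to 0.252).

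Opalin was the only one of 18 myelin genes that passed. The median of the list was -0.12 in KO spinal cord and 0.01 in WT, 16 genes were below 0 in KO and 9 in WT, and 9 were lower without overlap in KO, against 6.25% of all genes lower without overlap and 8575 of 17097 below 0. Among those that did not pass were Mog, the myelin oligodendrocyte glycoprotein, with 8.51, 8.29 and 8.57 at 6 months, against 8.74, 8.87 and 8.73 at 3 months (-0.32, limma adjusted p = 1), and Fa2h, which makes the hydroxylated fatty acids of myelin lipids (-0.30, adjusted p = 1). Enpp6, a choline phosphodiesterase of newly formed oligodendrocytes, read 7.51, 7.30 and 7.55 against 8.03, 7.97 and 8.01 and did not pass (-0.55, adjusted p = 0.376), while its WT change was 0.14. The mean level of the myelin list was 9.41, 9.47 and 9.47 at 6 months, against 9.61, 9.66 and 9.62 at 3 months, and the ages did not overlap. In WT spinal cord it was 9.61, 9.68 and 9.54 at 6 months, against 9.66, 9.57 and 9.67 at 3 months, and there they did. The list's median change was -0.12 in KO cerebellum, with 14 genes below 0, and -0.06 in KO midbrain, with 12. Over all 17097 genes, 7785 and 8414 were below 0 in these tissues.

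No cholesterol synthesis gene passed in KO spinal cord, while 1 was called lower in WT. Of 18 measured, 16 were below 0 in both KO and WT spinal cord, against 8575 and 9993 of all 17097 genes, and 10 were lower without overlap in KO, against 6.25% of all genes, with a median of -0.16 in KO and -0.13 in WT spinal cord. Sc5d, the sterol C5 desaturase, read 9.18, 9.25 and 9.18 at 6 months, against 9.58, 9.45 and 9.44 at 3 months (-0.28, SE 0.06, limma adjusted p = 0.101), and Mvd, the mevalonate diphosphate decarboxylase, read 5.71, 5.78 and 5.96, against 6.26, 6.44 and 6.29 (-0.52, adjusted p = 0.931). The list's mean was 7.91, 7.96 and 7.90 at 6 months, against 8.09, 8.09 and 8.10 at 3 months, and those ages did not overlap. Its median change was -0.09 in KO cerebellum, with 17 genes below 0, and -0.004 in KO midbrain, with 10. Over all 17097 genes, 7785 and 8414 were below 0 in these tissues.

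**Figure D5:**
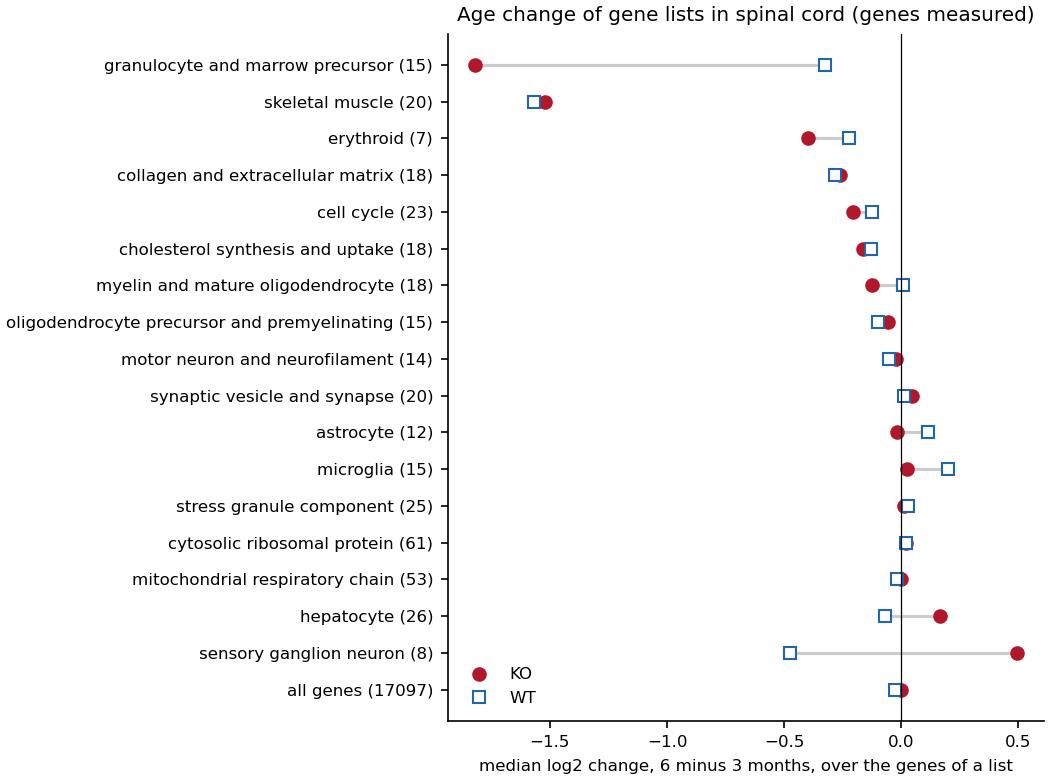
Median log2 change at 6 against 3 months over the genes of 17 lists and over all genes, in KO spinal cord (filled circles) and WT spinal cord (open squares), with the number of genes measured in brackets. The granulocyte list stands at -1.82 in KO and -0.32 in WT, muscle lies near -1.5 in both, and most neural lists lie near 0. Lists were chosen with earlier results of these data known.

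No call fell in the lists closest to the function of TIA-1. None of 25 stress granule components passed in KO spinal cord, with a median of 0.01, nor did any of 19 processing body and AU-rich element factors, with a median of -0.02, and each 0 stands against 0.158% of all genes lower and 0.0175% higher. Of the 18 genes the study names on KO and WT differences in these mice, none passed between the ages in KO spinal cord. Among them was Fgfrl1, a decoy receptor for fibroblast growth factors (1451912_PM_a_at), with 6.30, 6.34 and 5.99 at 6 months, against 6.80, 6.95 and 6.67 at 3 months (-0.60, limma adjusted p = 0.18). Cdkn1a, the cell cycle inhibitor p21, read 9.16, 8.50 and 8.53 at 6 months, against 8.40, 8.38 and 8.23 at 3 months (0.40, adjusted p = 1). Ribosomal proteins (61 genes, median 0.02), the respiratory chain (53, -0.001), motor neuron and neurofilament genes (14, -0.02) and synaptic genes (20, 0.05) held no call.

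For several genes the KO minus WT difference passed where WT spinal cord changed and KO spinal cord did not pass. Nnt, the mitochondrial transhydrogenase that is truncated in the C57BL/6J strain, read 7.05, 7.09 and 7.26 at 6 months, against 7.03, 7.23 and 7.0 at 3 months in KO spinal cord. In WT spinal cord it read 7.13, 7.22 and 7.06 at 6 months, against 8.21, 8.32 and 8.30 at 3 months, so that the younger WT mice alone stood apart (difference 1.18, limma adjusted p = 4.67e-06). Gabra2, a GABA-A receptor subunit, read 5.56, 5.47 and 5.44 against 6.04, 6.05 and 5.95 in KO, and 5.65, 5.33 and 4.98 against 7.53, 7.48 and 7.49 in WT (difference 1.65, adjusted p = 0.011). The younger WT mice were again the group apart, and this Gabra2 difference was lost without WT mouse 3 at 6 months.

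Slc25a37, the mitochondrial iron importer mitoferrin, and Entpd4, a Golgi nucleotidase, differed by -0.90 each (limma adjusted p = 3.94e-06 and 1.50e-04), with KO changes of 0.05 and 0.01 and WT changes of 0.95 and 0.91. Ide, the insulin-degrading enzyme, differed by -0.55 and -0.50 in its probe sets (adjusted p = 0.00276 and 0.00238), with KO changes of 0.01 and -0.02. Sgk1, a kinase induced by glucocorticoids, stood at -0.20 in KO and rose by 1.31 in WT (difference -1.51, adjusted p = 0.0169). Wdfy1, an adaptor of endosomes that the study names, stood at -0.19 and -0.07 in KO and at -1.40 and -1.35 in WT (differences 1.21 and 1.28, adjusted p = 0.0122 and 0.011). Lrp1b, an endocytic receptor, stood at -0.29 in KO and rose by 0.81 in WT (difference -1.09, adjusted p = 0.0476). The Lrp1b difference was lost without any 1 of 5 KO arrays (all but 6-month 122973) and that of Sgk1 without any 1 of 3 (3-month 122972 and 122973, 6-month 122972), with adjusted p up to 0.203 and 0.115. That of Sgk1 was also lost without WT mouse 1 or 2 at 3 months or WT mouse 1 at 6 months. Both Wdfy1 differences were lost without WT mouse 2 at 3 months or WT mouse 3 at 6 months.

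With 3 arrays a side an exact permutation test cannot give a p below 0.1, so the calls rest on a spread shared by all 48 arrays. With the 12 spinal cord arrays fitted alone, 1 probe set was higher and 13 lower, 11 of them among the 36, which kept Mmp8, Slc4a1, Hemgn, Ctse, Mki67, Ube2c, Meg3 and Opalin. Of these, Ube2c alone was lost when single KO arrays were left out of the fit over all arrays.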

How the data were processed

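Expression was measured on Affymetrix mouse arrays. Per the labels the authors normalized them by RMA in R 2.14.0, and the deposited table holds log2 intensities. It has 45141 rows, and 104 control rows were removed before fitting. A gene name was given to 28898 probe sets with a single symbol in the platform annotation, 551 had several and 15588 none. Depth does not apply to arrays, and their number, 3 per group, limits the precision.

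Group means of 16 groups were fitted over all 48 arrays with limma 3.58.1 in R 4.3.3 (lmFit, contrasts, eBayes), with Benjamini-Hochberg adjustment over 45037 probe sets and a threshold of 0.05. Lists used the brightest probe set of each of 17097 genes. Named genes were up to 15 called per direction with the largest change, of at least median level and without overlap between ages, or the 10 with the smallest p where under 5 were called, further called or leading members of each list, Tia1 and the genes the study names, and up to 6 called KO minus WT differences per direction. The remaining called genes and some single members were named after their values were seen. The members and lists were chosen with earlier results of these data known, and the hepatocyte list after its values were seen. The fit was tested on simulated data in which each probe set had the same spread in every group. Unequal spread between tissues was therefore not checked. The arrays of a group came from separate mice by the mouse numbers in the labels and the study's methods, while the labels do not give litters. The p-values rest on a spread within groups that is shared by all 48 arrays, brain and liver among them. They do not measure the spread of the KO spinal cord arrays alone. Same-numbered mice of the 2 ages did not deviate together, so no pairing was used. Alternatives were other sets of arrays, repeated quantile normalization, a filter on dim probe sets, another prior, a stricter threshold, the nested F decisions, a replicate block and leaving out each array.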

Additional observations from a re-analysis of the deposited data

Results flagged for a closer look

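The difference of the age changes, KO minus WT spinal cord, passed limma's test for 24 probe sets. Each compares separate cohorts of mice at the 2 ages, so that genotype and cohort cannot be told apart in these differences. Lower in KO were Chil4 (-2.06), Chil3 (-1.92), 1449077_PM_at (-1.87), Mmp8 (-1.75), Meg3 1429257_PM_at (-1.66), 1434502_PM_x_at (-1.59), Wfdc21 (-1.41) and Hemgn (-1.24), all with KO changes that passed on their own. Mmp8 was near background in WT spinal cord at both ages, so that its difference restates the KO change. Most KO values of Hemgn were near background too. Sgk1 (-1.51), Lrp1b (-1.09), Entpd4 (-0.90), Slc25a37 (-0.90) and Ide (-0.55 and -0.50) were lower relative to WT with KO changes that did not pass. Higher relative to WT were 1420465_PM_s_at (5.14), which rests on 2 KO arrays at 6 months and also on WT mouse 3 at 3 months with 7.06, and 1427820_PM_at (3.21). Gabra2 (1.65 and 1.2), Wdfy1 (1.28 and 1.21), Nnt (1.18 and 0.94), 1453473_PM_a_at (0.60) and 1428116_PM_a_at (0.57) were higher with KO changes that did not pass. Of the differences whose KO change did not pass, those of Sgk1, Lrp1b, 1427820_PM_at, 1453473_PM_a_at, 1428116_PM_a_at, Gabra2 (1.2) and Nnt (0.94) were lost when certain single KO arrays were left out (adjusted p up to 0.203). Single WT arrays mattered as well. Both Wdfy1 differences were lost without WT mouse 2 at 3 months or WT mouse 3 at 6 months. That of Gabra2 (1.65) was lost without WT mouse 3 at 6 months. The smaller Gabra2 difference (1.2) was lost without any single spinal cord array of either genotype. For 1427820_PM_at it was also lost without any WT array at 3 months, or WT mouse 1 or 2 at 6 months. For 1428116_PM_a_at it was also lost without WT mouse 2 at 3 months. The causes of the differences were not tested.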

How the results depend on the processing

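The 5 higher and 36 lower probe sets of KO spinal cord depended on which arrays shared the spread. With spinal cord arrays alone the counts were 1 and 13 (11 of the 41 shared), with a repeated quantile normalization 1 and 14, with nervous tissues alone 12 and 85, with the nested F decisions 63 and 170, and with the 6 KO arrays alone 0 and 12. A filter on dim probe sets left 2 higher and a threshold of 0.01 left 3. Leaving out single KO arrays gave 0 to 12 higher and 24 to 44 lower. Leaving out both 6-month arrays that carried liver transcripts was not planned and keeps 1 KO array at that age, so no counts are given for it. Mouse numbers are shared only as numbers (correlations of -0.103, -0.147 and 0.0233 in KO), and a replicate block on them in spinal cord alone gave 0 higher and 6 lower, all 6 among the 36, 20 in WT and 4 for the KO minus WT difference.

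The 109 WT calls became 346 with nervous tissues alone, 39 at 0.01, 617 with nested F and 41 to 90 with single arrays left out. The 24 KO minus WT calls became 6 with spinal cord alone, 6 with repeated normalization, 52 with nervous tissues alone, 11 at 0.01 and 13 to 35 with single arrays left out. KO cerebellum (38) had 168 with nervous tissues alone, 12 at 0.01 and 417 with nested F, and KO midbrain (2) had 5, 1 with the dim filter and 197. Spinal cord minus cerebellum (18) had 44 with nervous tissues alone and 13 to 29 with single arrays left out. Spinal cord minus midbrain (18) had 11 with the dim filter, 10 at 0.01, 9 to 23 with single arrays left out and 7 without both liver arrays. Directions turned for Avil (1.2) without the 3-month KO mouse 122972, with a range of -0.0894 to 1.894 as single arrays were left out. That of Alb turned without both 6-month KO spinal cord arrays that carried liver transcripts (-0.08121). That of the exon 4 probe set of Tia1 (0.06) turned without the 3-month KO mouse 122970, with a range of -0.04261 to 0.1485. The causes were not tested.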

Other observations

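Genes induced by glucocorticoids did not pass in KO spinal cord. Zbtb16, a transcription factor, read 8.36, 7.46 and 7.69 at 6 months, against 7.44, 7.29 and 7.09 at 3 months, and Fkbp5, a co-chaperone of the receptor, read 8.96, 8.09 and 8.34, against 8.08, 8.18 and 8.04. In both genes mouse 122970 was the highest of the older mice, and this mouse was also the highest for Plin4 and Cdkn1a.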
